A study of Mus musculus with 2 samples.

Results

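Receptors, receptor substrates and secreted binding proteins of the insulin and insulin-like growth factor (IGF) system were followed in sorted keratinocytes of mice with a conditional Med1 knockout and of control littermates. The members were 10 of the 16593 genes with a probe on the array: the substrates Irs1 and Irs2, the receptors Insr, Igf1r and Igf2r, and the binding proteins Igfbp2, Igfbp3, Igfbp4, Igfbp5 and Igfbp7. They were found by gene symbol in the platform annotation, which gave 14 probes. The set was chosen by pathway with the log2 ratios between these arrays in view, so the values below describe the arrays and no test is attached to them. After background correction Irs2 and 4 of the 5 binding proteins were at least 2-fold higher in the knockout pool, and without it 2 genes, Irs2 and Igfbp7, were. Igfbp3 was 1.96-fold lower, and both detected receptors differed by less than 1.1-fold.

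Each genotype was represented by 1 Illumina bead array. CON was RNA of littermates that carried floxed Med1 alleles and no Cre (strain label MED1 fl/fl C57BL6), and Med1cKO was RNA of mice with the same floxed alleles plus Cre driven by the keratin 14 promoter (strain label MED1 fl/fl Cre). Each array held keratinocytes combined from 3 mice and sorted as a6+CD34-, that is, with surface integrin alpha6 and without CD34, although some protocol text speaks of whole skin taken mouse by mouse. The sources used here give neither age nor sex. Keratin 14 is active in basal cells of the epidermis and of skin appendages. Skin cells that do not descend from those basal cells keep Med1. Having 1 pool per genotype hides the spread between mice. MED1 belongs to Mediator, which connects DNA-bound factors with RNA polymerase II, and is known as a coactivator of nuclear receptors.

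Insulin and the IGFs bind receptor tyrosine kinases, which phosphorylate the Irs docking proteins. Phosphorylated Irs proteins recruit PI3 kinase, which activates Akt. Akt in turn keeps FoxO transcription factors out of the nucleus and activates mTORC1. IGF binding proteins hold IGFs outside the cell and can block or prolong their action. In skin, IGF1 comes largely from the dermis, and its receptor on keratinocytes supports their growth.

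The sequences just upstream of the Irs genes are shown because Irs2 had the highest ratio among members detected on both arrays and its upstream bases share an arrangement with those of Irs1. RefSeq windows (build GRCm38.p6) were found for 9 of the 10 members, 10 windows in all because Igfbp2 has a pair of starts, and for Irs4, a substrate gene without a probe here. Insr had no entry. The 250 bases before each start were searched on both strands for 7 motifs. These were the E-box CACGTG, the insulin response element core CAAAACA bound by FoxO factors, the forkhead core GTAAACA, the cAMP response element TGACGTCA, the nuclear receptor half-site AGGTCA, the GC box GGGCGG and the TATA box TATAAA. In Irs1, Irs2 and Irs4 an E-box was followed directly by an insulin response element core, read as TGTTTTG on this strand. Capitals mark these motifs in the stretches of 36 bases, printed 5′ to 3′.
Irs2 (chr8:11008948-11008983, minus strand): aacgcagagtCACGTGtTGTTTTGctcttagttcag
Irs4 (chrX:141725346-141725381, minus strand): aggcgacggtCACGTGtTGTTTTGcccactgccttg
Irs1 (chr1:82291529-82291564, minus strand): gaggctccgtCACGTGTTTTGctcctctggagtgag

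In Irs2 the E-box began 44 bases before the start, and 1 base lay between it and the element, as in Irs4. In Irs1 it began 115 bases before the start, and the motifs shared 2 bases. Of all 32851 RefSeq windows, 6.02% held the E-box, 5.56% the insulin response element core, and 0.295% both. Only 7 windows (0.021%) held them at most 2 bases apart, and 3 of the 7 belonged to Irs genes. The window of Irs3, the other of the 4 Irs genes, lacked the pair. The limit of 2 bases was set after the Irs windows had been read. A match is a description of the letters and not a site.

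Whole windows of 250 bases follow for Irs2 and for the binding proteins Igfbp7 and Igfbp3, which differed in opposite directions between the pools. Capitals mark every match to the 7 motifs.
Irs2 (chr8:11008930-11009179, minus strand): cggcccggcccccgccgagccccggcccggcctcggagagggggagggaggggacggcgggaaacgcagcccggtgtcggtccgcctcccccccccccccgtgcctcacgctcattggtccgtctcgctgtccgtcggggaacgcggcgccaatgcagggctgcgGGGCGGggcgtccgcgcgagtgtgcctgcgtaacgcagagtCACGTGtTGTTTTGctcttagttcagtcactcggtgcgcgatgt
Igfbp7 (chr5:77408046-77408295, minus strand): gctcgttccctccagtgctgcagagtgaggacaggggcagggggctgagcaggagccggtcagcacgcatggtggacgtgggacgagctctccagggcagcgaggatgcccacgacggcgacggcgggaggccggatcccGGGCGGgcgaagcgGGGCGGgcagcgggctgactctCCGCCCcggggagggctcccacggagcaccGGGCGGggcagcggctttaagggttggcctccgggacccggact
Igfbp3 (chr11:7213924-7214173, minus strand): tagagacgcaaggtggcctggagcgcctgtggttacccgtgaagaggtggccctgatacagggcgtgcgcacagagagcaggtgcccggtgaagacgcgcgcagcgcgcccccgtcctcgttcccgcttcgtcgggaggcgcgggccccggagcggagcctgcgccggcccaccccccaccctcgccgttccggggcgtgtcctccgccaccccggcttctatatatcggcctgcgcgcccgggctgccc

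The Irs2 window held a GC box beside the pair of motifs above. Igfbp7 held 4 GC boxes, a motif found in 32.7% of all windows, and Igfbp3 held none of the 7 motifs. The E-box occurred in 4 of the 10 member windows (Irs1, Irs2, Igf2r and the upstream start of Igfbp2) and the GC box in 6. The nuclear receptor half-site, present in 14% of all windows, was found in Igf1r and Igf2r. The TATA box, present in 12.4%, was found in Igfbp4. The forkhead core (3.17% of all windows) and the cAMP response element (1.55%) were found in none of the 10.

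The arrays were alike in brightness and in the share of probes detected. Median intensity was 197.6 for CON and 191.2 for Med1cKO, and 40.8% and 42.7% of 25697 probes were detected, which here means a detection p below 0.01 against negative control beads of the same array. The strongest Med1 probe had intensities of 793.6 in CON and 452.2 in Med1cKO, 1.996-fold lower, so Med1 RNA was still detected in the pool labelled Med1cKO. Basal keratinocyte genes were detected on both arrays, 8 of 8, including Krt14 (log2 ratio 0.09) and Itga6 (-0.13). Of these 8 genes, 7 had a ratio below 0, among them Krt5 (-0.48) and Krt15 (-0.43), and the median was -0.20. Cd34, against which the cells were sorted, was also detected on both, at intensities of 320.7 and 279.3. Fold values are taken after background correction and quantile normalization unless stated, with Med1cKO set against CON. There was 1 array per genotype, so no difference has a replicate error, and fewer cells of a type cannot be told apart from less RNA per cell.

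Among all 7955 genes detected on at least 1 array, at least 2-fold higher values in Med1cKO were found for 314 (3.95%), and at least 2-fold lower values for 144 (1.81%). Of the 10 members 8 were detected, 5 passed 2-fold upward and none downward. The median log2 ratio of these 8 was 1.31, and that of all detected genes was -0.04. Since the members were chosen with these ratios in view, nothing is read from the difference between those shares or medians. Of the 14 probes, 11 were detected.

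**Figure D1:**
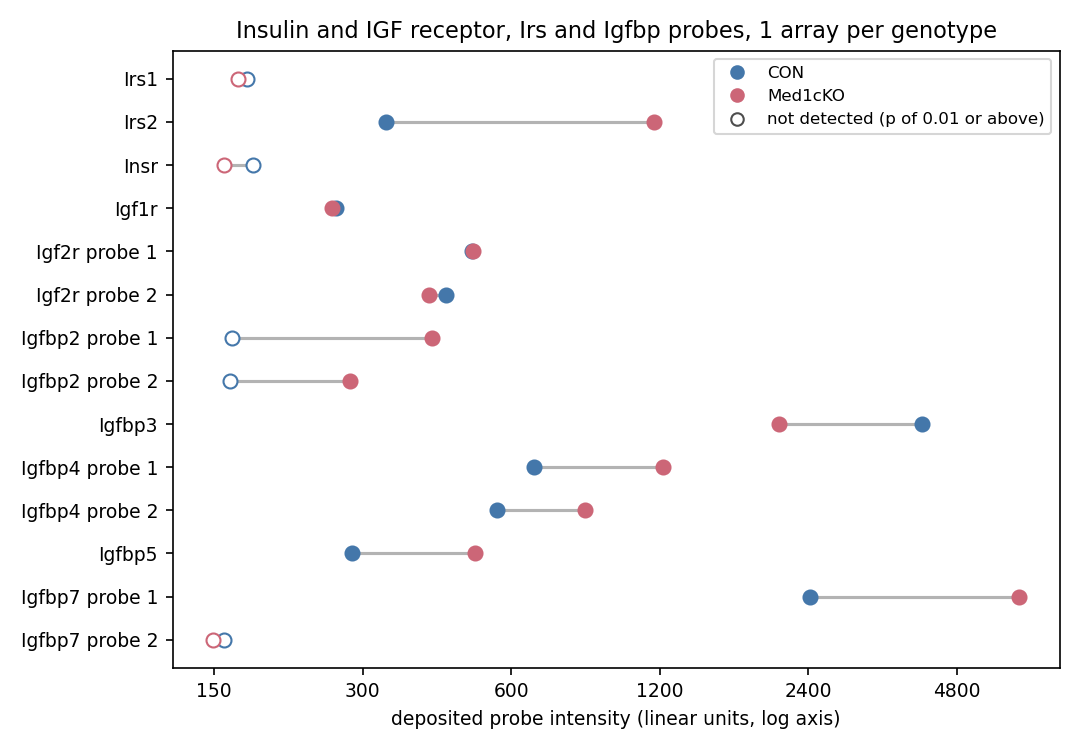
Deposited intensity of each of the 14 member probes (log axis) on the CON array (blue) and the Med1cKO array (red), 1 array each, with open circles where the probe was not detected. Irs2, Igfbp2, Igfbp4, Igfbp5 and the detected Igfbp7 probe lie farther right in Med1cKO, Igfbp3 lies farther left (4084 against 2089), and the Igf1r and Igf2r circles nearly coincide.

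Irs2, which couples the insulin and IGF1 receptors to PI3 kinase, was the member with the highest ratio among those detected on both arrays. Its single probe read 333.7 in CON and 1167 in Med1cKO. The probe was detected on both arrays, and the CON value lay not far above the lowest detected CON intensity of 239.2. This made Irs2 5.89-fold higher in Med1cKO (log2 ratio 2.56), rank 11 of 7182 genes detected on both arrays. The log2 ratios of genes at about the same level had a robust SD of 0.40, a measure of how genes scatter that says nothing of replicates. Without background correction Irs2 was 3.65-fold higher, and with the authors' normalized values, 353.5 in CON, 3.68-fold higher. In mouse liver, Irs2 is known to be transcribed under FoxO1 and CREB, and its level falls after feeding.

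Irs1, the sister substrate, was not above background in either pool. Its only probe read 174.9 in CON and 167.3 in Med1cKO, with detection p of 0.254 and 0.269. No fold is given for it, and a difference in Irs1 was not measurable with this probe.

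Both detected receptors differed far less than Irs2. Igf1r, the tyrosine kinase receptor for IGF1 and IGF2, read 265 in CON and 259.5 in Med1cKO, just above the lowest intensities that counted as detected (239.2 and 219.4). Its log2 ratio was 0.03, or 1.02-fold, where comparable genes had a robust SD of 0.55. A moderate difference would not be detectable at such a low signal.

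Igf2r, the mannose 6-phosphate receptor that takes up IGF2 for breakdown in lysosomes, was measured by 2 probes. The first read 500 and 502.1 in CON and Med1cKO and the second 442 and 408.4. Their log2 ratios of 0.11 and -0.08 had opposite signs and were both small beside the robust SD of 0.46 of similar genes.

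Insr, the insulin receptor, was not detected. Its probe read 179.7 in CON (detection p 0.198) and 157.1 in Med1cKO (0.571), so no fold is given.

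**Figure D2:**
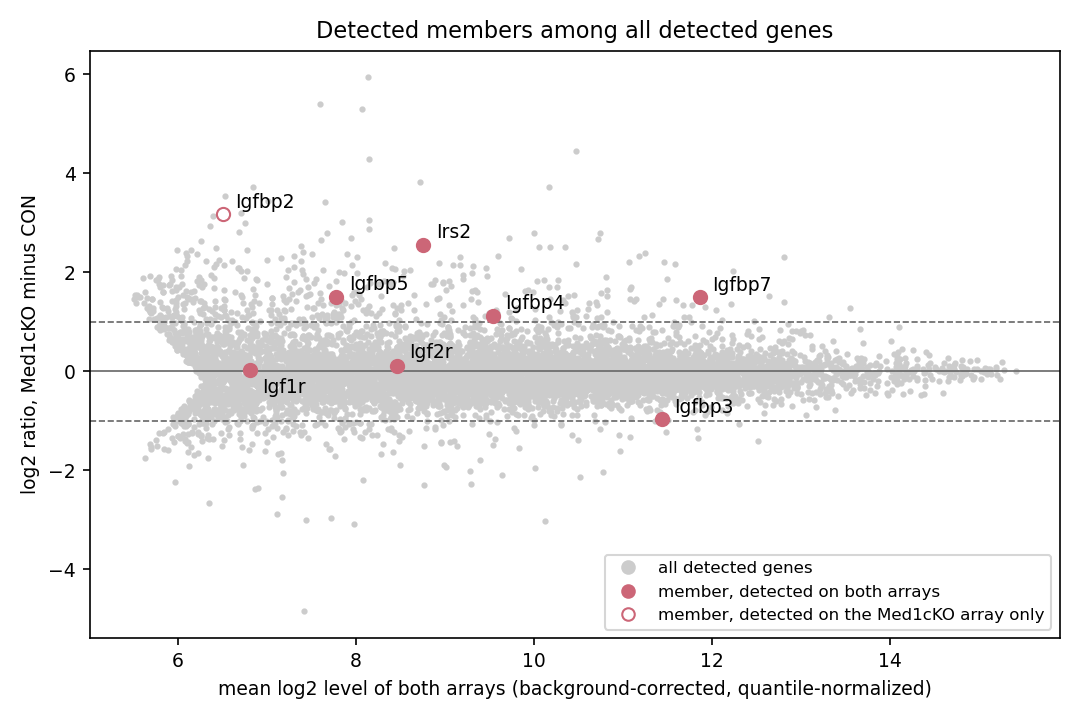
Log2 ratio (Med1cKO minus CON) against the mean log2 level of both arrays for all 7955 detected genes (grey) and the 8 detected members (red, open for Igfbp2, detected on the Med1cKO array only), with dashed lines at 2-fold. Irs2, Igfbp2, Igfbp4, Igfbp5 and Igfbp7 lie above the upper line, Igfbp3 lies just inside the lower one at -0.97, and Igf1r and Igf2r lie near 0.

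All 5 binding proteins were detected in the Med1cKO pool and 4 of them in CON. They differed in both directions, with a median log2 ratio of 1.50. Igfbp7, a secreted low-affinity relative of the classical binding proteins that is also found in vessel walls and stroma, had intensities of 2419 in CON and 6426 in Med1cKO. This was 2.84-fold higher (log2 ratio 1.50, robust SD of comparable genes 0.29). The ratio hardly depended on the background, at 2.72-fold without correction and 2.76-fold with the authors' values. A second Igfbp7 probe was at background on both arrays (157.2 and 149.1), so the difference rests on 1 probe.

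Igfbp4, known as an inhibitor of IGF action that is inactivated by the protease PAPP-A, was higher by both of its probes. The first read 668.2 in CON and 1217 in Med1cKO, and the second 562 and 844.7. These were 2.18-fold and 1.79-fold differences, so the probes agreed in direction while only the first passed 2-fold. Their mean log2 ratio was 0.98, and without background correction the first was 1.91-fold higher.

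Igfbp5, which binds to extracellular matrix as well as to IGFs, read 285.3 in CON and 507.2 in Med1cKO. It was detected on both arrays, in CON with a detection p of 0.00125, and was 2.84-fold higher in Med1cKO (log2 ratio 1.51, robust SD of similar genes 0.51). Without background correction the same values gave 1.86-fold.

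Igfbp2, which can also bind integrins through an RGD motif, was detected in the Med1cKO pool alone. Its first probe read 162.8 in CON and 414 in Med1cKO, and its second 161.4 and 282.5. Both CON readings were those of background, with detection p of 0.467 and 0.506. Set against the dimmest level that counted as detected on the CON array, Igfbp2 was higher in Med1cKO by a factor of at least 3.21 on the first probe and at least 1.62 on the second. These bounds hold on the background-corrected scale. Without that correction the bound of the first probe was 1.80-fold.

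Igfbp3, the main carrier of IGFs in blood and in human epidermis a product of basal keratinocytes, was the one detected binding protein that was lower in Med1cKO. Its probe read 4084 in CON and 2089 in Med1cKO. The 1.96-fold difference (log2 ratio -0.97, robust SD of similar genes 0.29) fell just short of 2-fold and ranked 136 from the lowest of 7182 genes. It was 1.89-fold without background correction and 2.02-fold without normalization between the arrays. Beside Igfbp4 at 2.18-fold, it is the member nearest to the 2-fold limit.

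**Figure D3:**
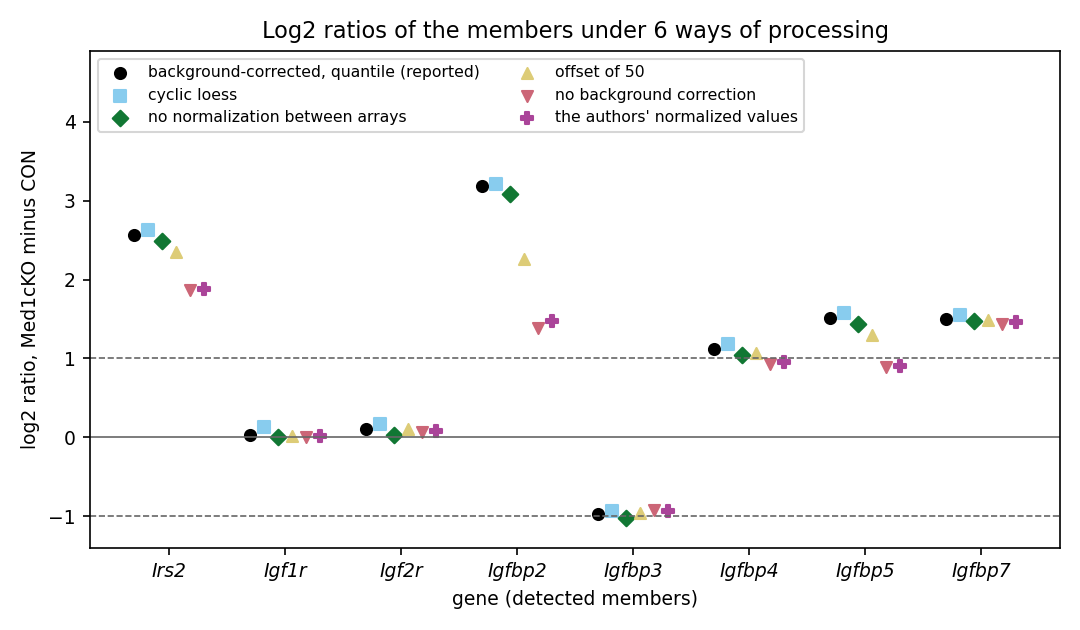
Log2 ratio (Med1cKO minus CON) of the 8 detected members under 6 ways of processing, with dashed lines at 2-fold. Irs2 falls from 2.56 to 1.87 and Igfbp5 from 1.51 to 0.89 when the background is not subtracted, while Igfbp7 and Igfbp3 move little. The Igfbp2 points are measured ratios against a CON value at background.

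Markers of other skin cells were higher in the same pool as Igfbp2, Igfbp4, Igfbp5 and Igfbp7, which stromal cells also express. Of 7 fibroblast markers none was detected in CON and 5 were detected in Med1cKO, with summed intensities of 1204 and 4021. Dcn was at least 26-fold higher by its first probe and at least 5.9-fold by its second. Col1a1 was at least 3.74-fold higher and Vim at least 2.62-fold. Col1a2 and Pdgfra were at background on both arrays. In CON, where none of the 7 fibroblast markers was detected, Igfbp3, Igfbp4, Igfbp5 and Igfbp7 were detected. Vim in CON fell just short of detection, at 233.7 with a detection p of 0.015. The part of fibroblasts in the Med1cKO values was not tested. Endothelial markers, of interest for Igfbp7, were near background. By the brightest probe of each gene, 1 of 5 was detected in Med1cKO (Egfl7) and none in CON, with summed intensities of 911.1 and 986.4. The probes of Egfl7 disagreed, since its second probe was detected in CON only.

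All 4 T cell markers with a probe were detected in Med1cKO and 3 in CON (summed intensities 6909 and 10812), and Cd3e, Cd3g and Cd3d were at least 2-fold higher. Langerhans cell markers had 3 of 4 detected on each array (1704 and 2582), with Cd207 and H2-Aa at least 2-fold higher. Sebocyte markers had 3 of 5 detected in CON and 4 in Med1cKO (5417 and 7823), with Mgst1 6.89-fold and Plin2 2.38-fold higher. Scd1, the brightest of them, did not differ (4260 in CON and 4162 in Med1cKO, log2 ratio 0.01). Hba-a1, a red cell globin, was 6.46-fold higher. Of the follicle bulge list 3 of 5 genes were detected in CON and 4 in Med1cKO (2020 and 2470), and Sox9 was 3.48-fold higher. Nfatc1, the brightest of that list, had a log2 ratio of -0.02 and Cd34 -0.31, while Lgr5 was at least 1.5-fold higher. One melanocyte marker, Dct, was detected in Med1cKO and none in CON (659.1 and 774.4), and no adipocyte or muscle marker was detected on either array. The basal keratinocyte sum was 163083 in CON and 141073 in Med1cKO and the suprabasal sum 71769 and 69595. None of their 14 genes differed 2-fold. How far these cell types bear on the members was not tested.

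Genes induced by CREB and by cell dissociation, read here because Irs2 is a CREB target in liver, were also mostly higher. Of 22 detected genes 5 passed 2-fold upward and 1 downward, beside 3.95% and 1.81% of all detected genes. Their median log2 ratio was 0.42, or 0.24 with genes detected on 1 array set to their bounds. Gadd45b was 6.39-fold higher, Ier3 4.98-fold, Ier2 at least 4.86-fold, Hspa1a 4.06-fold and Egr2 2.35-fold, while Klf2 was 3.03-fold lower. The early gene Fos had a log2 ratio of 0.00 and the CREB target Sik1, named after its value was seen, 0.15. Egr1 (0.05), Atf3 (0.11), Dusp1 (0.17) and Fosb (0.26), likewise named after their values were seen, also differed little. Nr4a1 and Ppargc1a were detected on neither array. Some other genes of the list differed more. Nr4a2 had 0.98 and Per1 0.69 and 0.78 by its 2 probes. Crem had -0.58 by its brightest probe and 0.08 and 0.04 by its other detected probes. Among the 22 detected genes 19 had a ratio above 0 and 2 below. The relation of this list to Irs2 was not tested.

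Beyond the members, 74 other genes of the pathway had a probe and 46 were detected. Of these, 8 passed 2-fold upward in Med1cKO and 1 downward, beside 3.95% and 1.81% of all detected genes, and their median log2 ratio was 0.09. The lists were drawn from knowledge of the pathway but with earlier results of these data known.

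Few ligands were detected. Igf1 and Ins2 were not detected on either array, with Igf1 at 167.4 in CON and 174.1 in Med1cKO. Igf2 was detected in CON only, at 241.7 against 192, and was at least 1.19-fold lower in Med1cKO. Igfals, the acid labile subunit that holds IGF and Igfbp3 together in blood, read 338.4 in CON and 661.8 in Med1cKO and was 2.87-fold higher. Igfbp1 and Igfbp6 were detected on neither array.

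Downstream of the receptors most genes differed little. Among 14 detected adaptors, PI3 kinase subunits, Akt partners and phosphatases, only Pik3r3 passed 2-fold, and the median log2 ratio was 0.05. Pik3r3, the p55 gamma regulatory subunit of PI3 kinase, read 300.9 in CON and 516 in Med1cKO, 2.59-fold higher, or 1.79-fold without background correction. Pdpk1, the kinase that activates Akt, had a log2 ratio of 0.49, with 0.94 by its second probe. In the list of receptor and substrate inhibitors, Socs2, a brake on growth hormone signalling, read 284.4 in CON and 652.7 in Med1cKO and was 3.98-fold higher. The receptor phosphatase Ptprf had a log2 ratio of 0.47, with 0.10 by its second probe, and the other 2 of 4 detected genes there were Grb10 and Socs3 (-0.03).

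In the mTORC1 branch 1 of 13 detected genes passed 2-fold, with a median log2 ratio of 0.04. Sesn2, a stress-induced inhibitor of mTORC1, was 2.22-fold higher, at 303.9 in CON and 469.9 in Med1cKO, or 1.61-fold higher without background correction. Ddit4, another inhibitor, was 1.88-fold higher.

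Genes in the list of FoxO factors and FoxO targets went both ways. Upward, 4 of 13 detected genes passed 2-fold, and downward 1 did, around a median log2 ratio of 0.23. The cell cycle inhibitor Cdkn1a was 2.03-fold, 2.12-fold and 2.26-fold higher by its 3 probes, and the growth arrest gene Gadd45a 2.40-fold. Both are also targets of p53. Cited2, a coactivator-binding protein, was at least 2.60-fold higher, and Pdk4, which inhibits pyruvate dehydrogenase, at least 2.52-fold. Without background correction neither reached 2-fold, and the first Cdkn1a probe was 1.99-fold higher. Fbxo32, a ubiquitin ligase under FoxO control in muscle, was lower by all 3 probes, from 3641 in CON to 1469 in Med1cKO by the first (2.51-fold) and 2.11-fold and 3.21-fold by the others. Foxo1 itself, named after its value was seen, was 1.51-fold lower. It was the only FoxO factor detected, since Foxo3, Foxo4 and Foxo6 were detected on neither array.

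**Figure D4:**
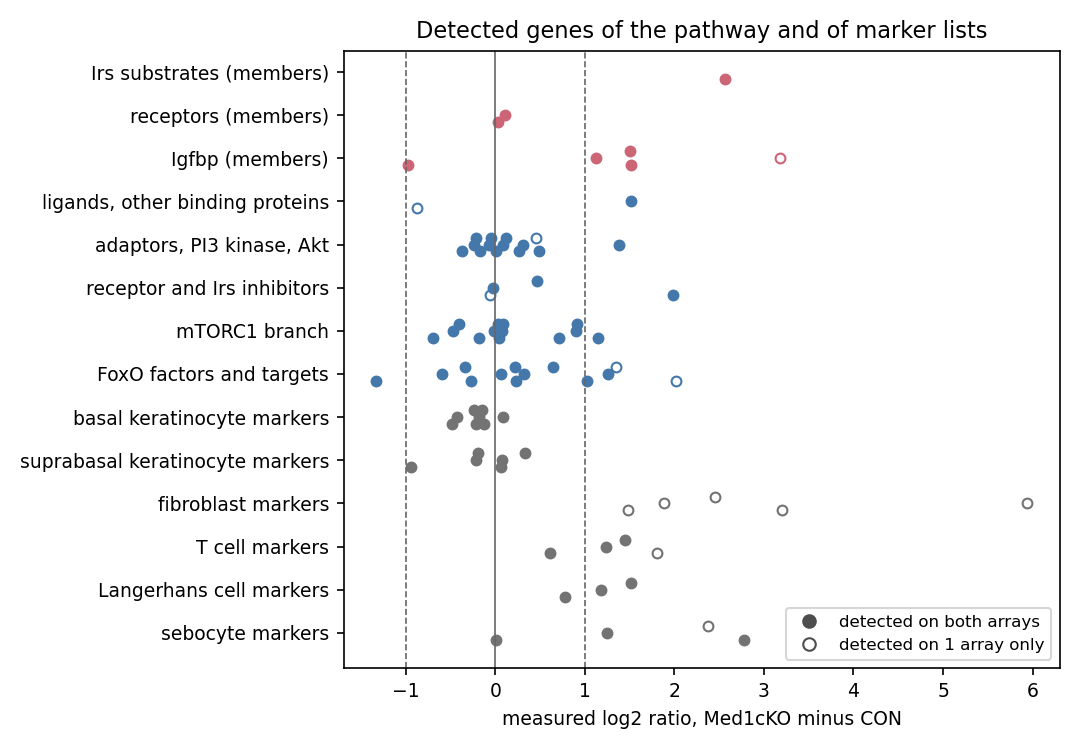
Measured log2 ratio (Med1cKO minus CON) of each detected gene, by list, for the members (red), the other pathway genes (blue) and cell type markers (grey), with open circles for genes detected on 1 array only and dashed lines at 2-fold. Most pathway genes lie within 2-fold, Fbxo32 lies left of the lower line, and all 5 detected fibroblast markers are open circles to the right, detected in Med1cKO only.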

How the data were processed

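Total RNA of 1 pool of sorted keratinocytes per genotype was hybridized to 1 Illumina bead array each, so 2 arrays were compared. The deposited intensity of each probe is linear and non-normalized, per the file headers, and its values still contain the background. Per the submitters' processing notes, GenomeStudio 2011.1 was used. The detection p-value deposited beside each intensity compares a probe with negative control beads, per the file headers. A second deposited table holds intensity values normalized by the authors (medians 198.4 and 198.7, linear, uncentred, same order as the intensities of the same array). These served as an alternative, with the normalization method not given in the sources.

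Intensities were background-corrected, quantile-normalized and log2-transformed with neqc of limma 3.58.1 in R 4.3.3 (offset 16). Later steps used Python 3.11.15. Of 25697 probes, 23978 had 1 gene symbol, none several and 1719 none. All 10 members matched RefSeq (GRCm38.p6) by Entrez ID. The probe with the highest mean level stood for its gene, and every member probe is reported. A gene was detected at a detection p below 0.01. Where 1 array detected it, the other array received its lowest detected log2 level (6.41 in CON, 6.20 in Med1cKO), which gives a lower bound of the fold. The robust SD was taken over genes in 10 bins of level. Named genes were all members, pathway genes at least 2-fold different, and the 2 largest absolute ratios per pathway list. Marker genes were named mostly where they were at least 2-fold different, so the brightest markers of a list are not always named. Members and lists were chosen with earlier results of these data known. The normalization was tested on simulated data. With 1 array per group no test was possible, and precision is limited by the number of arrays.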

Additional observations from a re-analysis of the deposited data

How the results depend on the processing

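Over 9 alternatives, 58 of 62 recomputed ratios of the 7 members detected on both arrays moved by less than the robust SD of comparable genes, 4 moved by more, and none at least 2-fold changed sign. All 4 came from the settings that leave the background in every intensity, which lowers ratios of dim probes by construction. The 58 include ratios that could not move. Changing the detection limit, or keeping only genes detected on both arrays, leaves a measured ratio as it was. The mean of probes does the same for a member with 1 detected probe. The count of 58 therefore overstates how stable the ratios were. Without background correction the log2 ratio was 1.87 for Irs2 and 0.89 for Igfbp5, and with the authors' normalized values 1.88 and 0.91. For Igfbp2 the readings gave 1.39 and 1.48 against a CON value at background, so that only its bounds of 1.80-fold and 1.87-fold can be used. Members at least 2-fold different then numbered 2 under both settings (Irs2 and Igfbp7) in place of 5, other pathway genes 4 and 5 in place of 9 (Pik3r3, Sesn2, Pdk4 and Cited2 fell short under both, Cdkn1a without background correction only), and all genes 199 and 209 in place of 458. Elsewhere the member count was 4 to 6. Igfbp4 was 1.97-fold higher by the mean of its probes. The bound of Igfbp2 was 1.97-fold with detection p below 0.001, where Igf1r was no longer detected, and Igfbp2 has no value among genes detected on both arrays. No paired analysis was possible because each genotype has 1 array. Igf1r, Igfbp2 and Igfbp5 in CON lie near background, which limits what their ratios can show.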

Other observations

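The arrangement of an E-box within 2 bases of an insulin response element core, met in the Irs windows, occurred upstream of 4 other genes. Of these, Pcbp1, an RNA-binding protein, had a log2 ratio of 0.38, and Pyroxd1, an oxidoreductase, -0.07, both detected on both arrays. Klf11 was not detected, and 1700019P21Rik had no probe in the annotation used. With Irs1 at background, Irs2 was the only one of the 3 detected genes with this arrangement that was at least 2-fold higher. The arrangement was defined after the Irs windows had been read.

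Mlst8, a core subunit of the mTOR complexes, was lower in the Med1cKO pool by all 3 of its probes, chosen after their values were seen. The probes read 2565, 2742 and 1986 in CON and 1546, 1444 and 1295 in Med1cKO, with log2 ratios of -0.70, -0.93 and -0.60. Tsc2, an inhibitor of mTORC1, had log2 ratios of -0.40 and -0.36 by its 2 probes, and Mtor -0.47 by its detected probe. The translation inhibitor Eif4ebp2 was 1.86-fold higher. Tsc2, Mtor and Eif4ebp2 were likewise named after their values were seen. Of the 13 detected genes in the list of the mTORC1 branch 8 had a ratio above 0 and 5 below, with a median log2 ratio of 0.04.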
